A study of Mus musculus with 31 samples.

Results

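The comparison set leukocytes sorted from mouse mammary tumours 5 days after fractionated radiotherapy against leukocytes from mock-irradiated tumours. The 6 libraries of the treated group came from tumours given 3 fractions of 4 Gy (3x4Gy), and the 4 libraries of the control group from tumours of mice that were anaesthetised on the same schedule and given 3 fractions of 0 Gy (3x0Gy). These were the libraries titled for the 2 schedules at day 5, 10 of the 31 in the series. All mice were female wild-type C57BL/6 animals carrying AT3-OVA tumours, a triple negative mammary carcinoma line that expresses the model antigen ovalbumin, implanted orthotopically in the mammary fat pad. Fractions were given once a day to the tumour alone, through an opening in a lead shield, and the host kept its own immune system. Each tumour was dissociated and cells bearing CD45.2, the common leukocyte antigen encoded by Ptprc, were sorted before RNA extraction. The other 10 day 5 libraries, 6 from tumours given a single 20 Gy dose (1x20Gy) and 4 from their own mocks (1x0Gy), shared the model fit and are set beside the fractionated schedule at the end. The labels do not say whether a library came from 1 animal or from a pool, so p-values measure the spread between libraries.

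Ionising radiation breaks DNA and activates the transcription factor p53, which induces cell cycle inhibitors such as Cdkn1a and pro-apoptotic genes such as Bax. Dying tumour cells also release molecules that engage NF-kB and interferon pathways in myeloid cells, and the irradiated bed is refilled in part by blood monocytes. Regulatory T cells are known as lymphocytes that survive irradiation comparatively well. A bulk library sums all sorted cells, so fewer cells of one type and less RNA per cell cannot be told apart in any value below.

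Gene counts per library ranged from 3612472 to 5729780 in the 3x4Gy group and from 2652298 to 6125696 in the 3x0Gy group. Reads that fell outside annotated genes made up 21.1% to 28.1% of these and gene reads together after 3x4Gy and 5.65% to 21.5% in the mocks. The lowest share belonged to 3x0Gy library 2 (5.65%, 95% Wilson interval 5.63% to 5.68%, covering counting error only). For the interval the read number was rebuilt from the gene counts and this share, without the ambiguous reads. That library stood apart: on the 1000 most variable genes it lay at -41.0 on the second principal component (19.3% of the variance), where the other 9 lay between -15.3 and 26.8. It had 98.1 CPM of the nuclear RNA Malat1 and 555 CPM of the mitochondrial ribosomal RNA mt-Rnr2, while the other mocks had 2798 to 4352 CPM and 14263 to 23545 CPM of these 2 genes. Its part in a result was measured by leaving it out. Values without it are given for some genes, and those of other genes can have moved too. The first component (52.3%) ran from 0.26 to 36.1 in 3x4Gy libraries and from -42.6 to -23.1 in mocks.

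At a false discovery threshold of 0.05 (edgeR's quasi-likelihood test, Benjamini-Hochberg adjusted p), 1477 of the 12021 genes tested were called, 625 of them higher (5.2%) and 852 lower (7.09%) after 3x4Gy. In 1152 genes (9.58%) the 6 irradiated libraries lay all above or all below the 4 mocks. Higher calls were smaller: their median log2 fold change was 0.76, and 178 of 625 reached 2-fold. Lower calls had a median of -1.42, and 562 of 852 reached 2-fold. Among 1817 genes averaging at least 100 CPM (library-scaled read counts, TMM) 191 rose and 46 fell, whereas among 2468 genes below 5 CPM 37 rose and 289 fell. The average was taken over the libraries of both groups, so a gene's own change helped to set its level. The split depended on scaling, upper quartile scaling giving 450 up and 1110 down and plain library size 325 up and 1084 down; the second put the median of all genes at -0.10, against -0.00 under TMM. In every one of the 20 fits that left out 1 day 5 library, 730 genes stayed called (274 higher, 456 lower). The counts given below for gene lists stand beside the shares over all tested genes, 5.2% higher and 7.09% lower. Several lie near them, and no list was tested. Of genes averaging at least 100 CPM, 10.5% were called higher.

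Marker genes of other cell types were also detected in the sorted libraries, and their summed levels differed between the groups, with overlap for the epithelial ones. Whether these reads came from such cells was not tested. The summed level of 30 collagen and stroma genes was 129 to 238 CPM (median 151) in 3x4Gy libraries and 493 to 924 CPM (median 625) in mocks, and none of the 30 was at 0 in all libraries of a group. For 25 epithelial genes the sums were 300.2 to 1233 CPM (median 559) after 3x4Gy and 892 to 1988 CPM in mocks (median 1131), and again none was at 0 throughout. Of 7 erythroid genes, which summed to 10.3 to 46.4 CPM after 3x4Gy against 82.7 to 291 CPM in mocks, Slc4a1 was among those at 0 in the mocks. Sums of 12 endothelial genes moved the other way, 145 to 203 CPM after 3x4Gy against 72.2 to 112 CPM in mocks, with Cldn5 at 0 after 3x4Gy. Of the 8 tested, 2 were called, both higher. Members too low to test did not rise. Total counts after 3x4Gy and in mocks were 8 and 26 for Plvap, 10 and 13 for Ptprb, and 1 and 1 for Tek. The 8 pan-leukocyte genes summed to 5805 to 7288 CPM after 3x4Gy and to 5071 to 5471 CPM in the mocks. When the mean log2 CPM of the collagen and epithelial genes entered the model, it called 99 genes; 65 belonged to the 1477, of which 1434 kept their sign. This mean was 1.55 to 3.12 in 3x4Gy libraries and 3.70 to 4.43 in mocks, so the 2 groups do not overlap on it, and it and the treatment cannot be told apart.

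**Figure D1:**
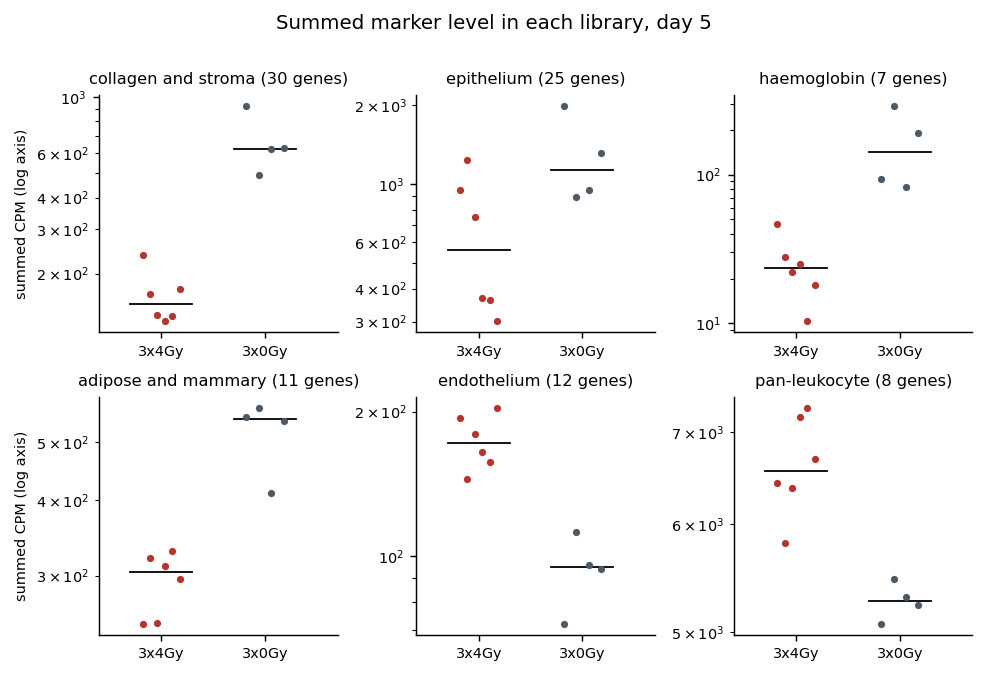
Summed level of 6 marker lists in each day 5 library (CPM, log axis), with 3x4Gy libraries (red, 6) left of 3x0Gy libraries (grey, 4) and a line at each group's median. Collagen and haemoglobin sums of all 3x4Gy libraries lie below those of all mocks, the endothelial and pan-leukocyte sums lie above, the adipose sums lie below, and the epithelial sums overlap.

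The p53 target Cdkn1a, which encodes the cell cycle inhibitor p21, was the leading DNA damage gene. It had 630.2 to 1029.9 CPM (median 885) in 3x4Gy libraries, against 433, 194, 289 and 324 CPM in 3x0Gy libraries 1 to 4, and its log2 fold change (log2FC, 3x4Gy over 3x0Gy) was 1.44 (SE 0.19, adjusted p = 4.1e-05). Every irradiated library lay above every mock. The gene lies on GRCm38 chromosome 17, 29090976 to 29100727, plus strand, by the GENCODE annotation. Bax, which permeabilises the mitochondrial outer membrane, had 21.2 to 45.4 CPM (median 32.1) after 3x4Gy and 8.37, 11.9, 16.3 and 17.5 CPM in mocks, and rose by 1.22 on the log2 scale (SE 0.21, adjusted p = 0.00052). Bak1, its partner in that step, rose by 0.90 on the log2 scale (SE 0.17, adjusted p = 0.0012), with 64.1 to 122 CPM after 3x4Gy against 39.2 to 59.1 CPM in mocks. The groups did not overlap for either gene. Sesn2, a stress-induced inhibitor of mTORC1, had 20.9 to 50.6 CPM in 3x4Gy libraries and 11.3 to 18.8 CPM in mocks (log2FC 1.09, SE 0.23, adjusted p = 0.0035).

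Most p53 targets were not called. Of 25 tested p53 targets 4 rose and 1 fell, with a list median of -0.04 beside -0.00 over all genes, and 3 to 5 rose when any single library was left out. None fell without 3x0Gy library 2 or 4 or 3x4Gy library 4, 5 or 6, and 2 fell without 3x4Gy library 2. Mdm2, the ubiquitin ligase that degrades p53, was among the 4 at 0.59 (SE 0.17, adjusted p = 0.027), but was no longer called without 3x0Gy library 1, 3 or 4 or 3x4Gy library 4 (adjusted p up to 0.091). Of 21 DNA repair genes 1 rose and 1 fell. None rose without 3x0Gy library 1 or 2, 2 rose without 3x0Gy library 3 or 4, 3x4Gy library 2 or 1x0Gy library 3, and 3 rose without 3x4Gy library 3. None fell without 3x0Gy library 1, 2 or 3 or 3x4Gy library 3, 4 or 5. The BCL2 family and death receptors had 4 of 24 higher and 1 lower; 2 were higher without 3x4Gy library 1 or 6 or without 3x0Gy library 1, and none was lower without 3x0Gy library 1 or 3.

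Genes of the integrated stress response, in which the factor ATF4 induces amino acid import and glutathione metabolism, included some of the larger increases. Because ATF4 acts through the composite element known as CARE, the promoter windows of 3 called genes with a match are shown. Each runs from 250 bases before to 50 after an annotated start (RefSeq, GRCm38.p6), 5′ to 3′ on the gene's strand, and capitals mark TGATGNAA on either strand.
Chac1 (chr2:119350992-119351291, plus strand): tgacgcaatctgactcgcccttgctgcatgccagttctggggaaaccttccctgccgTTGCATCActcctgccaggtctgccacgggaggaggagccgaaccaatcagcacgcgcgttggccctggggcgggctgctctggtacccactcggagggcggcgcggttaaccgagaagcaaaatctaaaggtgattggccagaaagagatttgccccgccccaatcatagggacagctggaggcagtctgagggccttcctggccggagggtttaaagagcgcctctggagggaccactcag
Slc7a11 (chr3:50443564-50443863, minus strand): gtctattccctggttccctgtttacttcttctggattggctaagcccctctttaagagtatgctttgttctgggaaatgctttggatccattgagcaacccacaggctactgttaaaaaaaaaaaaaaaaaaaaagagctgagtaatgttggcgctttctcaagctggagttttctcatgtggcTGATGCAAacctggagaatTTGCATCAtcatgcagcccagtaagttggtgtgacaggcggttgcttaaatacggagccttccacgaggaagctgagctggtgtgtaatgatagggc
Nupr1 (chr7:126625421-126625720, minus strand): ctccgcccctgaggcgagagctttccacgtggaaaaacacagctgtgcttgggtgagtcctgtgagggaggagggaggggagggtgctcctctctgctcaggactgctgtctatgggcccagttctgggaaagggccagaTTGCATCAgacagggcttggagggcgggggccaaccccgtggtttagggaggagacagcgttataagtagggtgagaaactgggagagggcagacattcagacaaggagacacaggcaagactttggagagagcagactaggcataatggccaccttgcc
Slc7a11 carries 2 matches in opposite orientation, the first at -66 from the start, whereas Chac1 and Nupr1 carry 1 each, at -193 and -110. Over all genes with a window 4.51% of 27025 hold this motif, and among tested genes 2.90% of 8734. It was present in 3 of the 5 integrated stress genes called higher, in 4 of 13 not called and in the 1 called lower. A match is only a description of these letters.

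Chac1, which degrades glutathione, had 5.32 to 11.5 CPM (median 8.97) in 3x4Gy libraries and 2.09, 1.36, 0.343 and 1.24 CPM in the mocks, and rose by 2.86 on the log2 scale (SE 0.45, adjusted p = 0.00026). Slc7a11, the cystine importer that feeds glutathione synthesis, had 88.1 to 222 CPM (median 124) after 3x4Gy against 42.9, 59.6, 30.8 and 54.9 CPM in mocks (log2FC 1.55, SE 0.31, adjusted p = 0.0019). Both genes were higher in every irradiated library than in any mock. The mitochondrial folate enzyme Mthfd2 also separated the groups, averaging 125 ± 10.5 CPM after 3x4Gy (SD, n = 6) against 74.3 ± 5.61 CPM in mocks (SD, n = 4; log2FC 0.75, SE 0.14, adjusted p = 0.0013), as did Sesn2, counted here too. Nupr1, a stress-induced chromatin protein, had 27.5 to 58.2 CPM after 3x4Gy against 13.02 to 28.96 CPM in mocks and was called (log2FC 0.92, SE 0.25, adjusted p = 0.02), though not without 3x0Gy library 3 or 4 (adjusted p up to 0.072). In all, 5 of 21 members rose and 1 fell (4 to 6 rose when 1 library was left out), and the list median was 0.20. None fell without 3x0Gy library 1, 3 or 4 or 3x4Gy library 3, 4, 5 or 6. Other well known members were not called: Atf4 itself at 608 to 1270.0 CPM after 3x4Gy against 445 to 708 CPM in mocks (log2FC 0.57, SE 0.20, adjusted p = 0.065), Ddit3 at 74.2 to 131 CPM after 3x4Gy against 67.6 to 133 CPM in mocks (adjusted p = 0.63), Asns and Trib3.

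Antioxidant genes gave a mixed picture. Of 17 NRF2 and glutathione genes 5 rose, with Slc7a11 counted here too, and 1 fell. Without 3x0Gy library 2 the number that rose was 3, and library size scaling gave 2 higher and 1 lower. Gclc, the rate-limiting enzyme of glutathione synthesis, had 31.6 to 37.96 CPM after 3x4Gy and 10.9 to 26.8 CPM in mocks (log2FC 0.66, SE 0.17, adjusted p = 0.013; not called by library size scaling), and the thioredoxin reductase gene Txnrd1 136 to 279.8 CPM after 3x4Gy and 90.1 to 145 CPM in mocks (log2FC 0.75, SE 0.19, adjusted p = 0.011). Nqo1, a quinone reductase also abundant in epithelia, fell to 0 to 1.55 CPM after 3x4Gy, against 10.1, 4.77, 4.28 and 6.2 CPM in the mocks (log2FC -3.31, SE 0.60, adjusted p = 0.00092). The log2 fold change of Nqo1 was -3.93 without 3x4Gy library 3. That of Gclc was 0.45 (adjusted p = 0.021) without 3x0Gy library 2. Hmox1, the haem oxygenase, was not called at 16.1 to 69.2 CPM after 3x4Gy against 27.2 to 83.1 CPM in mocks (adjusted p = 0.39).

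**Figure D2:**
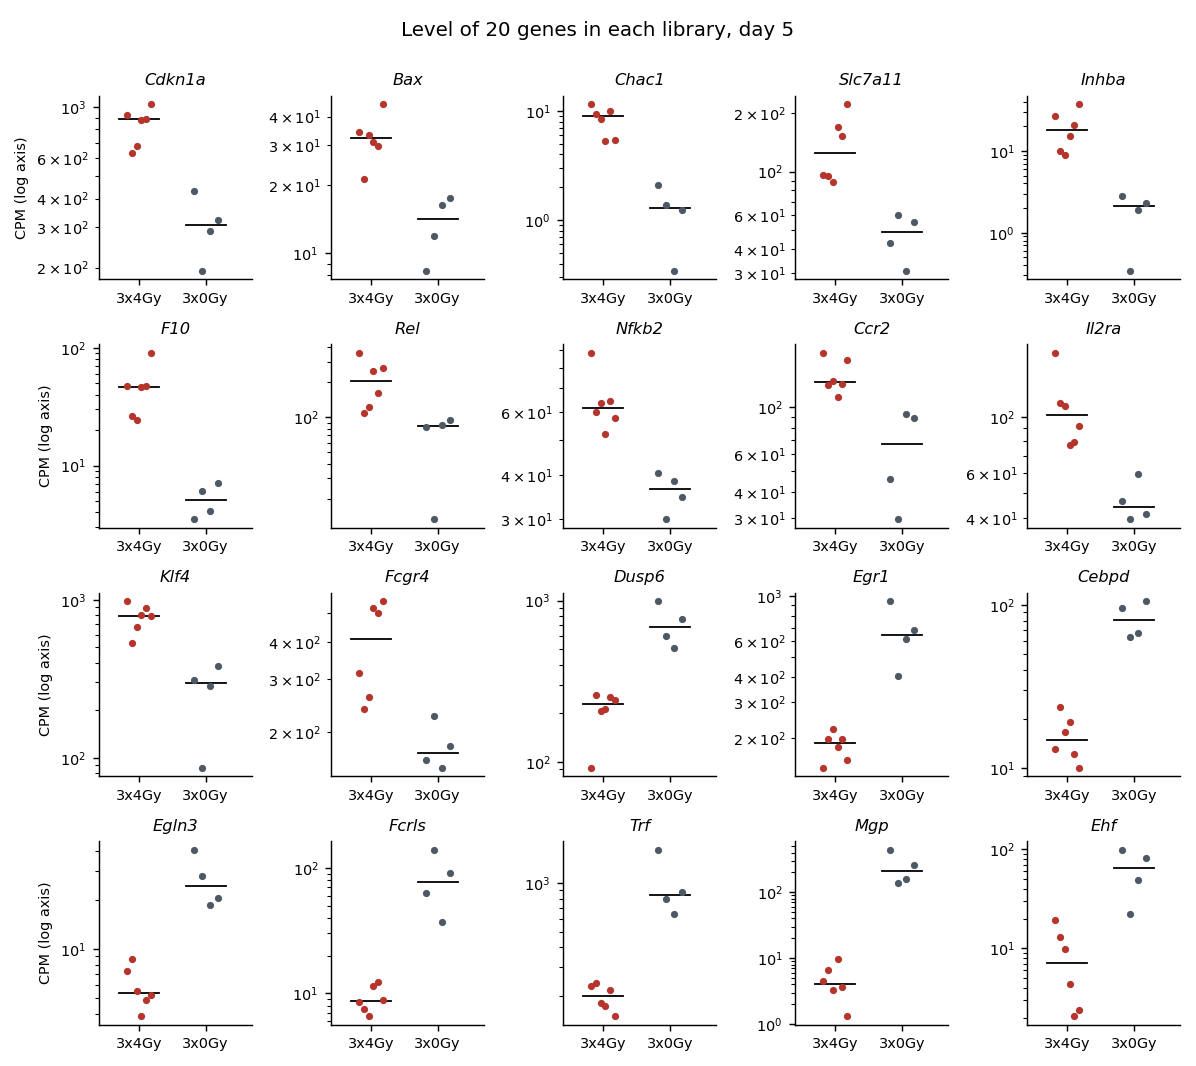
CPM (log axis) of 20 genes in each day 5 library, with 3x4Gy libraries (red, 6) left of 3x0Gy libraries (grey, 4) and a line at each group's median. In all 20 panels the groups do not overlap: the first 12 genes, Cdkn1a to Fcgr4, are higher after 3x4Gy and the last 8, Dusp6 to Ehf, are lower. The genes were picked from those called. Of the 1477 called genes 913 do not overlap, and of all 12021 tested genes 1152 do not.

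Inhba, which encodes the subunit of activin A, ranked first by log2 fold change among the higher genes named. It reached 8.81 to 37.3 CPM (median 17.96) in 3x4Gy libraries, against 2.79, 0.341, 1.88 and 2.33 CPM in mocks (log2FC 3.36, SE 0.49, adjusted p = 0.00012; chromosome 13, 16011851 to 16031621, plus strand). Activins signal through type II receptors of the TGF-beta superfamily and are bound by follistatin. Of 22 tested members of that family 1 rose, Inhba, and 7 fell. A second gene rose without 3x0Gy library 3, and 5 to 8 fell when 1 library was left out. Inhbb, the activin B subunit, fell to 0 to 2.37 CPM after 3x4Gy, against 6.97, 2.04, 5.31 and 6.98 CPM in mocks (log2FC -2.32, SE 0.46, adjusted p = 0.002), and the groups overlapped at mock library 2. The co-receptor Tgfbr3 (log2FC -1.88, SE 0.43, adjusted p = 0.0055) and the follistatin-like gene Fstl1 (log2FC -2.23, SE 0.44, adjusted p = 0.0021) were also lower, with overlap at the same mock. Tgfb1, the ligand made by many leukocytes, was at 31.6 to 72.5 CPM after 3x4Gy against 36.6 to 67.3 CPM in mocks and was not called (adjusted p = 0.89). The falls named here are of genes that fibroblasts and epithelium also express. Summed collagen and stroma markers were lower in all 3x4Gy libraries than in all mocks, whereas epithelial sums overlapped. The part of these cells in the result was not tested.

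Coagulation genes moved in both directions. F10, coagulation factor X, rose in all irradiated libraries, which had 24.4 to 90.8 CPM (median 46.6) after 3x4Gy, against 3.49, 6.13, 4.11 and 7.13 CPM in mocks (log2FC 3.13, SE 0.43, adjusted p = 5.1e-05). F7, the factor VII that activates it, had 5.26 to 27.5 CPM (median 10.8) after 3x4Gy and 1.05, 3.75, 2.4 and 2.79 CPM in mocks (log2FC 2.34, SE 0.62, adjusted p = 0.015), and Procr, the protein C receptor, 84.99 to 199 CPM after 3x4Gy and 35.6 to 93.7 CPM in mocks (log2FC 1.03, SE 0.25, adjusted p = 0.0096). Both F10 and F7 separated the groups, while Procr overlapped. Tissue factor, F3, which starts the extrinsic pathway with factor VII, was low and not called, at 0.295 to 7.58 CPM after 3x4Gy against 1.39 to 7.15 CPM in mocks (adjusted p = 0.32). Serpine2, a thrombin and plasminogen activator inhibitor, fell to 32.5 to 78.97 CPM after 3x4Gy, against 108 to 236 CPM in mocks (log2FC -1.69, SE 0.29, adjusted p = 0.00049). Gas6, a vitamin K-dependent ligand of TAM receptors, fell to 2.01 to 10.1 CPM (median 6.96) after 3x4Gy, against 34.2, 23.8, 18.7 and 38.6 CPM in mocks (log2FC -2.04, SE 0.37, adjusted p = 0.00095), and the vitamin K reductase Vkorc1 fell by 0.93 on the log2 scale (SE 0.21, adjusted p = 0.0055). Vkorc1 had a log2FC of -0.56 (adjusted p = 0.027) without 3x0Gy library 2. Altogether 4 of 19 members rose and 5 fell, 3 falling without 3x0Gy library 2.

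NF-kB genes formed one of the more uniform groups. This family of dimers is held in the cytoplasm by inhibitors, and its subunits and inhibitors are themselves induced by it. The windows of 3 called members with kB motif matches in capitals are shown because these genes are both parts and targets of the pathway (RefSeq, GRCm38.p6; the motif was searched on both strands, and overlapping matches run together).
Nfkb2 (chr19:46304487-46304786, plus strand): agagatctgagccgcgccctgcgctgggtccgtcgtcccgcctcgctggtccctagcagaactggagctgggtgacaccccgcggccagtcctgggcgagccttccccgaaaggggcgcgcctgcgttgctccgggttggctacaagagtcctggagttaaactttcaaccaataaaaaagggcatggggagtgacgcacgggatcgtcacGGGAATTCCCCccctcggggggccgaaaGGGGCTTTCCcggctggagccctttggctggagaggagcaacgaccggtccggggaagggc
Rel (chr11:23770920-23771219, minus strand): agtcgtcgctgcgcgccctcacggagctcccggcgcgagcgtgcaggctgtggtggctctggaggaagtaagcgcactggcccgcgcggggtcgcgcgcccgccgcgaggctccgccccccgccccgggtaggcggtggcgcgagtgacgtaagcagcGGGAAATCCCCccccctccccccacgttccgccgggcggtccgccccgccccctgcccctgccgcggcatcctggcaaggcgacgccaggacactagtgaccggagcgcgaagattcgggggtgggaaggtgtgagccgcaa
Nfkbie (chr17:45555450-45555749, plus strand): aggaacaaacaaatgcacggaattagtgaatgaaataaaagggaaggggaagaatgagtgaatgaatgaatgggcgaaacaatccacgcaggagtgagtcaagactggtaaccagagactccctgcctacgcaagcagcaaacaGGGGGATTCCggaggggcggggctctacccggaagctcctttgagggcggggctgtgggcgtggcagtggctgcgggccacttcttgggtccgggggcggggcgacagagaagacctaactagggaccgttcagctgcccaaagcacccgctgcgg
The motif occurs in 5.14% of the 27025 genes with a window and in 6.42% of the 8734 tested ones. It was found in 4 of 5 NF-kB genes called higher that have a window and in 5 of 10 not called. Among all genes called higher the share was 9.57% of 470, and among those called lower 5.90% of 593.

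The subunit gene Rel had 109.9 to 358 CPM (median 205) after 3x4Gy and 81.9, 13.3, 85.1 and 95.2 CPM in mocks (log2FC 1.60, SE 0.40, adjusted p = 0.01). No irradiated library fell below a mock, and the 13.3 CPM belonged to the library that stood apart; without it the log2 fold change was 1.27 (adjusted p = 0.016). Nfkb2, the p100 precursor of the non-canonical arm, had 52.3 to 88.2 CPM after 3x4Gy against 29.98 to 40.4 CPM in mocks (log2FC 0.84, SE 0.16, adjusted p = 0.0017), and its partner Relb 77.5 to 91.7 CPM after 3x4Gy against 33.4 to 62.4 CPM in mocks (log2FC 0.72, SE 0.15, adjusted p = 0.0026). Nfkbie, the inhibitor IkB epsilon, had 89.2 to 128 CPM after 3x4Gy against 54.7 to 77.7 CPM in mocks (log2FC 0.75, SE 0.14, adjusted p = 0.0011). All 4 separated the groups. Of 18 members 7 rose and none fell, with a median of 0.48; leaving out 1 library gave 5 to 10. Rela, the main canonical subunit, was not called at 85.1 to 144 CPM after 3x4Gy against 74.6 to 193 CPM in mocks (adjusted p = 0.98), nor was the inhibitor Nfkbia (log2FC 0.51, SE 0.17, adjusted p = 0.053).

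Cytokine genes that NF-kB controls did not move as a block. Il1b, the main inflammatory cytokine of myeloid cells, had 2578 to 4202 CPM in 3x4Gy libraries and 2523, 8618, 2269 and 2568 CPM in mocks and was not called (log2FC -0.14, SE 0.28, adjusted p = 0.77). Without 3x0Gy library 2, the one at 8618 CPM, it was called higher at 0.56 (adjusted p = 0.025). The decoy receptor Il1r2 rose to 223 to 463 CPM (median 380.0) after 3x4Gy, against 156, 233, 132 and 144 CPM in mocks (log2FC 1.14, SE 0.18, adjusted p = 0.0003), with overlap only at that mock. Il23a, a subunit of interleukin 23, rose at a low level, with 2.26 to 7.97 CPM after 3x4Gy against 0.681 to 1.09 CPM in mocks (log2FC 2.21, SE 0.41, adjusted p = 0.0012). It was the 1 of 12 genes in the list of other cytokines that rose (2 without 3x0Gy library 3 or 3x4Gy library 1), and the 1 that fell lost its call without any one of 13 of the 20 day 5 libraries. Il33, an alarmin of stromal and epithelial nuclei, fell to 0.229 to 1.75 CPM after 3x4Gy, against 17.4, 9.54, 2.57 and 4.19 CPM in mocks (log2FC -3.22, SE 0.60, adjusted p = 0.0011), and had a log2FC of -2.59 without 3x0Gy library 1. In the interleukin 1 family 2 of 17 rose and 1 fell, with 4 rising without 3x0Gy library 2 and 1 rising without any one of 3x0Gy libraries 1, 3 and 4 and 3x4Gy libraries 1, 4, 5 and 6. Ptgs2, the inducible cyclooxygenase, had 46.98 to 85.1 CPM after 3x4Gy against 11.2, 7.15, 17.1 and 35.04 CPM in mocks (log2FC 1.73, SE 0.32, adjusted p = 0.0012; 2.32 without 3x0Gy library 4), and the groups did not overlap.

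In the list of cytokine receptors and their feedback inhibitors (SOCS genes), every called gene rose, 5 of 23 (8 without 3x0Gy library 2 and 9 without 3x4Gy library 2). Csf2rb, the shared beta chain of the GM-CSF, interleukin 3 and interleukin 5 receptors, had 337 to 577 CPM (median 481) in 3x4Gy libraries and 223, 234, 184 and 229.8 CPM in mocks (log2FC 1.08, SE 0.16, adjusted p = 0.00018). Il2ra, the high-affinity interleukin 2 chain, had 77.4 to 178 CPM (median 101) after 3x4Gy and 46.7, 39.5, 59.4 and 41.4 CPM in mocks (log2FC 1.21, SE 0.24, adjusted p = 0.0017). Il7r, the interleukin 7 receptor, had 65.3 to 152 CPM after 3x4Gy against 57.9, 19.8, 52.1 and 55.7 CPM in mocks (log2FC 1.08, SE 0.27, adjusted p = 0.011), and 0.84 (adjusted p = 0.034) without 3x0Gy library 2. Cish, a feedback inhibitor induced by STAT5, had 79.7 to 114 CPM after 3x4Gy against 48.2 to 70.1 CPM in mocks (log2FC 0.68, SE 0.16, adjusted p = 0.0069). Each of these 4 was higher in all irradiated libraries than in all mocks. Csf1r, the macrophage growth factor receptor, was not called (447 to 789 CPM after 3x4Gy against 457 to 1221 CPM in mocks, adjusted p = 0.67).

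Monocyte and dendritic cell genes included several increases. Ccr2, which brings monocytes out of the bone marrow, had 112 to 180.5 CPM (median 131) after 3x4Gy and 46.02, 29.6, 92.8 and 88.8 CPM in mocks (log2FC 1.12, SE 0.25, adjusted p = 0.0048). Itgam, the integrin chain CD11b, had 30.2 to 111 CPM after 3x4Gy against 19.5 to 29.98 CPM in mocks (log2FC 1.20, SE 0.29, adjusted p = 0.0081). Ly6i, an Ly6 family gene whose reads may be shared with close paralogs, rose by 2.98 on the log2 scale (SE 0.60, adjusted p = 0.0024). The groups did not overlap for these 3 genes. Of 17 monocyte genes 5 rose and 1 fell, and 3 rose without 3x0Gy library 4. None fell without 3x0Gy library 2, 3 or 4 or 3x4Gy library 2 or 4, and 2 fell without 3x0Gy library 1, 3x4Gy library 6 or 1x0Gy library 3. Of 18 markers of mature dendritic cells 6 rose and none fell (3 without 3x0Gy library 1 or 4), with a median of 0.73. They included the costimulatory receptor Cd40, with 97.5 to 179 CPM after 3x4Gy against 61.01, 85.9, 63.4 and 102 CPM in mocks (log2FC 0.96, SE 0.20, adjusted p = 0.003); its groups overlapped at 1 mock. Type 1 conventional dendritic cells had 2 of 12 higher, among them Naaa, a lysosomal amidase (121 to 241 CPM after 3x4Gy against 54.7 to 107 CPM in mocks; log2FC 1.13, SE 0.20, adjusted p = 0.00088), and 4 were higher without 3x4Gy library 1; none was lower, but 1 was without 3x4Gy library 2. None of 10 plasmacytoid dendritic cell genes was called, though 1 was higher without 3x0Gy library 3 or 1x0Gy library 2 or 3 and 1 was lower without 3x0Gy library 2 or 3x4Gy library 2.

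Among checkpoint and costimulation ligands 4 of 16 rose and none fell (3 or 4 rose when 1 library was left out, and 1 fell without 3x0Gy library 4 or 3x4Gy library 6). Besides Cd40 they included Cd47, the signal against phagocytosis, at 301 to 539 CPM after 3x4Gy against 124 to 265 CPM in mocks (log2FC 0.83, SE 0.20, adjusted p = 0.0075), and Tnfsf9, the 4-1BB ligand, at 1.74 to 8.27 CPM after 3x4Gy against 0.341 to 2.09 CPM in mocks (log2FC 2.2, SE 0.53, adjusted p = 0.008). Cd47 had a log2FC of 0.64 (adjusted p = 0.025) without 3x0Gy library 2. Cd274, which encodes PD-L1, was called at a log2FC of 1.07 (SE 0.30, adjusted p = 0.023), but not without 3x0Gy library 1 or 2 or 3x4Gy library 5 or 6 (adjusted p up to 0.083). Genes linked to suppressive myeloid cells had 4 of 15 higher in the full fit and 4 or 5 with any library left out, and none lower except 1 without 3x4Gy library 6. The 4 were Ptgs2, the mitochondrial arginase Arg2 (11.3 to 24.2 CPM after 3x4Gy against 4.28 to 8.22 CPM in mocks; log2FC 1.61, SE 0.36, adjusted p = 0.0047), the lectin-like oxidised LDL receptor Olr1 (9.63 to 16.4 CPM after 3x4Gy against 1.37 to 4.43 CPM in mocks; log2FC 1.81, SE 0.34, adjusted p = 0.0012) and the amplifying receptor Trem1 (log2FC 1.17, SE 0.27). Clec4e, the mincle receptor for mycobacterial and damage ligands, rose by 1.68 on the log2 scale (SE 0.26, adjusted p = 0.00019), with 84.97 to 121 CPM after 3x4Gy against 20.4 to 51.4 CPM in mocks. The formyl peptide receptor Fpr2 had 10.4 to 31.6 CPM after 3x4Gy against 4.81 to 7.49 CPM in mocks (log2FC 1.81, SE 0.41, adjusted p = 0.0054). In neutrophil genes 3 of 13 tested rose and 1 fell: Hdc, histidine decarboxylase, rose by 1.68 on the log2 scale (SE 0.33, adjusted p = 0.0017), and Lcn2, an iron-scavenging lipocalin also made by epithelium, fell to 11.3 to 54.7 CPM after 3x4Gy, against 282, 100.2, 105 and 130.2 CPM in mocks (log2FC -2.51, SE 0.48, adjusted p = 0.0015). Another 6 neutrophil genes were too low to test. Ly6g, Camp and Elane had 0 counts in both groups. Counts after 3x4Gy and in mocks were 2 and 0 for Ngp, 2 and 0 for Stfa2l1, and 8 and 6 for Mpo.

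Of 15 macrophage identity genes 2 rose and none fell, with a median of -0.12, and 1 rose without any one of 12 of the 20 day 5 libraries. Of 8 Fc receptor genes 1 rose and 2 fell (2 rose without 3x0Gy library 2 or 3x4Gy library 2). Among the 2 that fell was Pigr, an epithelial receptor described below. Fcgr4, an activating receptor for IgG, rose to 238 to 546 CPM (median 408) after 3x4Gy, against 161, 227, 152 and 179.5 CPM in mocks (log2FC 1.14, SE 0.24, adjusted p = 0.0035). Fcrls, a scavenger receptor-like gene of resident macrophages in mouse, fell to 6.56 to 12.4 CPM (median 8.73) after 3x4Gy, against 63.1, 139, 36.99 and 91.5 CPM in mocks (log2FC -3.17, SE 0.47, adjusted p = 0.00014). Neither gene overlapped between the groups, and they lay on opposite sides. Of 18 complement genes 3 rose and 1 fell, none falling without 3x0Gy library 4 and 2 without 3x0Gy library 3. Complement C3 rose by 1.21 on the log2 scale (SE 0.30, adjusted p = 0.01) and properdin, Cfp, by 0.81 on the log2 scale (SE 0.17, adjusted p = 0.0029). Of 15 alternative activation genes 3 rose and 1 fell, and 1 rose without 3x0Gy library 3 or 4. Retnla, the 1 that fell, had 8.52 to 54.3 CPM after 3x4Gy, against 36.95, 221, 232 and 199.5 CPM in mocks (log2FC -3.08, SE 0.66, adjusted p = 0.0035), with 3x4Gy library 6 above mock library 1, and had a log2FC of -3.67 without that 3x4Gy library. Mgl2, a lectin of the same state, rose by 1.49 on the log2 scale (SE 0.34, adjusted p = 0.0059). In the lipid-associated macrophage list 2 of 19 fell, Trem2 (9.78 to 38.4 CPM after 3x4Gy against 50.2, 156, 37.3 and 72.6 CPM in mocks; log2FC -1.73, SE 0.40, adjusted p = 0.0059) and Spp1, which was not called without 3x0Gy library 2 (adjusted p = 0.054). Trem2 had a log2FC of -1.19 (adjusted p = 0.046) without the same mock. Of 24 lysosomal protease genes none rose and 2 fell, 1 without any one of 11 of the 20 day 5 libraries. One of them, Ctsd, fell by 0.97 on the log2 scale (SE 0.24, adjusted p = 0.01), with overlap at 1 mock.

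Iron handling genes fell together as far as they were called, 5 of 17, and the same number was called with any library left out. Trf, transferrin, had 149 to 239 CPM (median 198) in 3x4Gy libraries and 1610.2, 799, 639 and 886 CPM in mocks (log2FC -2.31, SE 0.24, adjusted p = 3e-06). Slc40a1, the iron exporter ferroportin, had 0.501 to 3.54 CPM after 3x4Gy against 5.99 to 15.7 CPM in mocks (log2FC -2.40, SE 0.52, adjusted p = 0.0036), and ceruloplasmin, Cp, had 13.99 to 39.4 CPM after 3x4Gy against 216, 34.4, 91.3 and 147 CPM in mocks (log2FC -2.41, SE 0.37, adjusted p = 0.00017). Steap4, a metalloreductase, fell to 0.218 to 2.07 CPM after 3x4Gy, against 3.08 to 4.53 CPM in mocks (log2FC -2.24, SE 0.47, adjusted p = 0.0032; -2.92 without 3x4Gy library 3), and Lcn2 was counted above. Trf, Slc40a1 and Steap4 separated the groups, and Cp overlapped at 1 mock. Trf, Cp and Lcn2 are also expressed by mammary epithelium. Its summed markers had a lower median after 3x4Gy, but the groups overlapped, as given above. The part of these cells in the result was not tested.

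Chemokine and matrix protease genes moved in both directions. Cx3cl1, fractalkine, fell to 3.76 to 16.9 CPM (median 7.85) after 3x4Gy, against 108, 54.8, 41.6 and 60.0 CPM in mocks (log2FC -2.76, SE 0.36, adjusted p = 3.4e-05). Of 23 chemokine ligands 1 rose and 4 fell; 4 rose without 3x4Gy library 1 and none without 3x0Gy library 1, 3 or 4 or 3x4Gy library 5 or 6, and 1 fell without 3x0Gy library 2. Of 17 chemokine receptors 2 rose, Ccr2 among them, and 1 fell; 1 rose without 3x0Gy library 1 or 4 or 3x4Gy library 2, 3 or 5. The one that fell was the scavenger Ackr3, listed as Cxcr7, which fell by 2.93 on the log2 scale (SE 0.75, adjusted p = 0.012). The interferon-induced ligands Cxcl9 (293 to 984 CPM after 3x4Gy against 299 to 591 CPM in mocks, adjusted p = 0.25) and Cxcl10 (99.3 to 239 CPM after 3x4Gy against 174 to 423 CPM in mocks, adjusted p = 0.27) were not called. Mmp19, a secreted metalloproteinase, had 58.6 to 164 CPM (median 105) after 3x4Gy and 13.9, 40.5, 21.4 and 28.4 CPM in mocks (log2FC 2.00, SE 0.37, adjusted p = 0.0011). Mmp2, the gelatinase of fibroblasts, had 7.27 to 26.3 CPM after 3x4Gy against 28.1 to 81.2 CPM in mocks (log2FC -1.83, SE 0.37, adjusted p = 0.0022) and the inhibitor Timp3 2.06 to 12.8 CPM after 3x4Gy against 15.9 to 36.95 CPM in mocks (log2FC -1.84, SE 0.37, adjusted p = 0.0021). None of these 3 overlapped. In all, 2 of 19 metalloproteinases and inhibitors rose and 3 fell, 1 rising without 3x0Gy library 2, 3 or 4, 3x4Gy library 1, 3 or 5 or 1x20Gy library 5. Of 16 vascular growth factor genes 4 rose and 3 fell, turning to 3 and 4 under upper quartile or library size scaling, and 2 rose without 3x0Gy library 2 or 3. Kdr, the main VEGF receptor, rose by 0.86 on the log2 scale (SE 0.19, adjusted p = 0.0055) and Pecam1, counted with the integrins and present on leukocytes too, by 1.22 on the log2 scale (SE 0.24, adjusted p = 0.0022); Vegfa was not called (94.8 to 139 CPM after 3x4Gy against 70.6 to 142 CPM in mocks).

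In the lymphocyte compartment the regulatory T cell list had the highest median of all 63 lists, 1.15. Foxp3, its lineage factor, had 8.27 to 37.4 CPM (median 25.4) in 3x4Gy libraries and 11.2, 4.77, 6.85 and 3.57 CPM in mocks (log2FC 1.81, SE 0.45, adjusted p = 0.011), and its ranges overlapped at mock library 1. Il2ra, described above, did not overlap. Of 14 members 7 rose and none fell, but 4 rose without 3x0Gy library 1 and 2 without 3x0Gy library 4. Ctla4, an inhibitory receptor these cells carry, had 65.4 to 215 CPM after 3x4Gy against 40.8 to 54.3 CPM in mocks (log2FC 1.56, SE 0.42, adjusted p = 0.018); its call ended without 3x0Gy library 1 or 4 (adjusted p up to 0.0509). Genes of the T cell receptor complex had 1 of 23 higher (0 without 3x0Gy library 1 or 4 or 3x4Gy library 1, 3 or 5, and 2 or 3 without 3x0Gy library 3, 3x4Gy library 6 or 1x20Gy library 1 or 2). Cytotoxic and NK genes had 1 of 22 higher and 2 lower, none of them called without 3x0Gy library 2. None was higher without 3x0Gy library 1 or 4 or 3x4Gy library 1 or 6 either, and the lower count fell to 0 or 1 without any one of 14 of the 20 day 5 libraries. Cd8a (62.8 to 142 CPM after 3x4Gy against 59.5 to 188 CPM in mocks, adjusted p = 0.41), granzyme B, Gzmb (36.03 to 83.8 CPM after 3x4Gy against 26.4 to 83.1 CPM in mocks, adjusted p = 0.74), and Pdcd1, which encodes PD-1 (41.2 to 104 CPM after 3x4Gy against 19.4 to 69.9 CPM in mocks, adjusted p = 0.53), were not called. Btla, an inhibitory receptor of B and T cells, rose by 0.80 on the log2 scale (SE 0.20, adjusted p = 0.01), and with Ctla4 made 2 of 12 inhibitory receptor genes higher (1 without 3x0Gy library 1 or 4). Of the lymphocyte transcription factors 5 of 20 rose (3 without 3x0Gy library 1 or 4 or 3x4Gy library 1). They included Foxp3, already counted with the regulatory T cell genes, Rora (log2FC 1.44, SE 0.39) and Zeb2 (log2FC 1.15, SE 0.29). Which sorted cells expressed them was not tested.

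Plasma cell genes fell, 7 of 14, with a median of -1.29. Ighg2c, an IgG heavy chain constant region, had 5.26 to 16.2 CPM in 3x4Gy libraries and 441, 19.1, 79.5 and 84.3 CPM in mocks (log2FC -4.0, SE 0.75, adjusted p = 0.0013), and Ighg2b 2.06 to 13.6 CPM after 3x4Gy and 100.0, 18.4, 21.7 and 53.8 CPM in mocks (log2FC -2.77, SE 0.60, adjusted p = 0.0039). Igj, the joining chain of IgM and IgA, fell to 9.16 to 49.3 CPM (median 17.4) after 3x4Gy, against 147, 80.7, 58.4 and 75.7 CPM in mocks (log2FC -1.95, SE 0.46, adjusted p = 0.007). All 3 separated the groups, but 3x0Gy library 1 held the highest value of each: without it Ighg2c had a log2FC of -2.68 and Ighg2b at -2.17, and 4 list members were called. The count was also 4 without 3x0Gy library 4 or 3x4Gy library 1 or 5. Reads of immunoglobulin segments can be shared between genes. None of 6 tested B cell genes was called. Pigr, the epithelial receptor that exports polymeric immunoglobulin, fell by 3.77 on the log2 scale (SE 0.32, adjusted p = 2.1e-07), with 1.04 to 2.51 CPM after 3x4Gy against 15.2 to 47.1 CPM in mocks.

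Several genes induced by ERK signalling and feeding back on it fell. Dusp6, the phosphatase of ERK, had 91.5 to 258 CPM (median 227) in 3x4Gy libraries and 991, 599.9, 511 and 769 CPM in mocks (log2FC -1.77, SE 0.23, adjusted p = 3.2e-05). Spry2, an adaptor that dampens receptor tyrosine kinases, had 13.3 to 26.3 CPM (median 16.1) after 3x4Gy and 72.2, 38.2, 51.2 and 63.1 CPM in mocks (log2FC -1.67, SE 0.25, adjusted p = 0.00018). Both were lower in all irradiated libraries than in all mocks, as were Dusp8 (log2FC -1.66, SE 0.30), Spry1 (log2FC -2.26, SE 0.49) and Phlda1 (log2FC -1.27, SE 0.18). These 5 of 15 were called lower with any library left out, and 1 member, Dusp4, was called higher in the full fit but not without any one of 11 of the day 5 libraries. Egr1, an immediate early factor downstream of ERK, had 143 to 222 CPM (median 188) after 3x4Gy and 945, 406, 615 and 681 CPM in mocks (log2FC -1.86, SE 0.23, adjusted p = 1.8e-05), while Fos was not called (523 to 793 CPM after 3x4Gy against 453 to 901 CPM in mocks, adjusted p = 0.86). Klf4, a factor of monocytes and of stress, rose to 531 to 979 CPM (median 792) after 3x4Gy, against 308, 86.2, 283 and 379.5 CPM in mocks (log2FC 1.55, SE 0.27, adjusted p = 0.00078). Of 24 immediate early genes 1 rose and 3 fell, 1 falling without 3x0Gy library 1 and 2 rising without 3x0Gy library 1 or 3x4Gy library 2 or 3.

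Among C/EBP and other myeloid factors 5 of 23 rose, with Klf4 counted here too, and 2 fell. Maf, another of the 5 (log2FC 0.81, SE 0.23), was not called by library size scaling. Cebpd, an acute phase factor that several cell types induce, was the lower of those 2, with 10.04 to 23.8 CPM (median 14.8) after 3x4Gy and 95.5, 63.7, 67.5 and 106 CPM in mocks (log2FC -2.39, SE 0.24, adjusted p = 1.5e-06; chromosome 16, 15887286 to 15891031, plus strand). No irradiated library reached the lowest mock. Bhlhe41, a circadian repressor, fell by 1.72 on the log2 scale (SE 0.31, adjusted p = 0.00093), and Id2, which dendritic and innate lymphoid cells need, rose by 0.60 on the log2 scale (SE 0.15, adjusted p = 0.0086).

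Hypoxia and glycolysis genes had 8 of 32 lower and 3 higher, and 4 lower without 3x0Gy library 2 or 5 without 3x4Gy library 5. Egln3, a prolyl hydroxylase induced by hypoxia, had 3.84 to 8.68 CPM (median 5.38) in 3x4Gy libraries and 40.8, 27.9, 18.7 and 20.6 CPM in mocks (log2FC -2.15, SE 0.30, adjusted p = 6.6e-05). The collagen prolyl hydroxylase P4ha2 fell by 2.38 on the log2 scale (SE 0.39, adjusted p = 0.00034) and the pyruvate dehydrogenase kinase Pdk1 fell by 0.97 on the log2 scale (SE 0.18, adjusted p = 0.0012). Hif1a, the oxygen-regulated factor itself, rose to 234 to 421 CPM (median 279) after 3x4Gy, against 136, 155, 177 and 163 CPM in mocks (log2FC 0.97, SE 0.20, adjusted p = 0.0028), and Ddit4, an mTORC1 inhibitor, by 0.92 on the log2 scale (SE 0.22, adjusted p = 0.0072). All 5 separated the groups, on opposite sides. Heat shock genes had 3 of 12 lower, 1 without 3x0Gy library 2; Hspa1b fell by 1.54 on the log2 scale (SE 0.35, adjusted p = 0.0054). The mitochondrially encoded mt-Cytb had 656 to 1261 CPM after 3x4Gy against 1473 to 1807 CPM in mocks (log2FC -0.75, SE 0.15, adjusted p = 0.0025), 1 of 2 called among 11 such genes, both lower; 1 was called without any one of 13 of the 20 day 5 libraries.

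Interferon genes were largely not called. Of 27 type I interferon genes none rose and 1 fell, with a median of 0.06. Over single omitted libraries 0 to 3 fell, the count moving in 16 of the 20 fits, and 1 rose without 3x0Gy library 2, 2 without 3x4Gy library 1 and 3 without 3x4Gy library 2. Isg15 had 280.0 to 886 CPM after 3x4Gy against 344 to 727 CPM in mocks (adjusted p = 0.4). Guanylate-binding proteins and related GTPases, which interferon gamma induces, had 3 of 17 higher (6 without 3x4Gy library 2) and none lower (1 without 3x0Gy library 2 or 3x4Gy library 6). Gbp5 had 42.5 to 146 CPM (median 72.8) in 3x4Gy libraries and 19.2, 39.2, 32.2 and 38.1 CPM in mocks (log2FC 1.26, SE 0.28, adjusted p = 0.0052), and Gbp2b, whose reads can be shared with its near copies, 10.5 to 49.3 CPM after 3x4Gy and 3.14 to 6.51 CPM in mocks (log2FC 2.34, SE 0.49, adjusted p = 0.0029). In antigen presentation Tap1, a subunit of the peptide transporter, rose by 0.58 on the log2 scale (SE 0.13, adjusted p = 0.0056), H2-DMb1, which loads class II molecules, by 1.00 on the log2 scale (SE 0.22, adjusted p = 0.005), and H2-DMb2 by 0.78 on the log2 scale (SE 0.17, adjusted p = 0.0035). Class I genes numbered 2 of 22 higher, 1 higher and 1 lower under upper quartile or library size scaling. The class I count was 1 without any one of 11 of the 20 day 5 libraries, and 1 was lower without 3x4Gy library 6. Class II genes numbered 2 of 13 higher. Samhd1, a dNTPase of resting myeloid cells, rose to 688 to 909 CPM after 3x4Gy, against 470.2 to 580.2 CPM in mocks (log2FC 0.66, SE 0.14, adjusted p = 0.0034). It was 1 of 2 higher among 23 nucleic acid sensing genes, where 1 fell; 1 was higher without any one of 13 of the 20 day 5 libraries, and none fell without 3x0Gy library 1.

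Proliferation genes had 4 of 42 higher and 1 lower, beside 5.2% higher and 7.09% lower over all tested genes. Without 3x0Gy library 1 or 2, 2 were higher. Mki67, a marker of cycling cells, had 144 to 360.5 CPM (median 165) in 3x4Gy libraries and 88.2, 80.4, 107 and 123 CPM in mocks (log2FC 0.99, SE 0.23, adjusted p = 0.0058), and Tpx2, a spindle factor, 39.4 to 52.4 CPM after 3x4Gy and 25.2 to 35.04 CPM in mocks (log2FC 0.54, SE 0.12, adjusted p = 0.0052). Neither overlapped. Cdkn2a, the locus of p16 and p19ARF, fell to 1.77 to 5.21 CPM after 3x4Gy, against 5.79 to 16.4 CPM in mocks (log2FC -1.58, SE 0.35, adjusted p = 0.0043). Of 21 tested histone genes 16 had a positive log2 fold change, and the list median was 0.79. The summed level of all 26 listed histone genes overlapped, at 2459 to 3740 CPM after 3x4Gy against 3092 to 4181 CPM in mocks. Called lower were 2, Hist1h1c (log2FC -1.03, SE 0.18) and Hist1h2bc (log2FC -1.44, SE 0.23), and 1 was called higher. The one higher was Hist1h1b, at 4.13 to 44.4 CPM after 3x4Gy against 0 to 6.67 CPM in mocks, which lost its call without 3x4Gy library 1 or 6, 1x20Gy library 5 or any one of the 4 mocks; 2 or 3 histone genes were higher without 3x4Gy library 2, 3 or 5.

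Integrins and adhesion molecules had 5 of 25 higher and 4 lower, 4 and 5 by library size, and 1 lower without 3x0Gy library 2 (2 without 3x0Gy library 1 or 4 or 3x4Gy library 2 or 3). Itga4, the chain of VLA-4, rose by 0.65 on the log2 scale (SE 0.16, adjusted p = 0.0083) and Icam1 by 0.76 on the log2 scale (SE 0.15, adjusted p = 0.0018). Itga6, a laminin receptor chain, fell to 74.6 to 86.5 CPM after 3x4Gy, against 126 to 229 CPM in mocks (log2FC -1.17, SE 0.20, adjusted p = 0.00058).

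Genes of the collagen, epithelial and Wnt lists were among the largest decreases. Mgp, matrix Gla protein, had 1.31 to 9.75 CPM (median 4.09) in 3x4Gy libraries and 442, 136, 157 and 261 CPM in mocks (log2FC -5.70, SE 0.46, adjusted p = 2.1e-07). Of 23 tested collagen and stroma genes 15 fell and none rose, with a median of -2.04. They included Col1a2 (1.74 to 3.44 CPM after 3x4Gy against 5.45 to 26.8 CPM in mocks; log2FC -2.66, SE 0.49), Postn, periostin (0.218 to 2.51 CPM after 3x4Gy against 18.8 to 30.3 CPM in mocks; log2FC -4.22, SE 0.44), Smoc1 (log2FC -4.49, SE 0.49) and decorin, Dcn (log2FC -2.04, SE 0.41). Of 25 epithelial genes 8 fell and none rose (7 to 11 when 1 library was left out). Ehf, an epithelial ETS factor, had 2.06 to 19.6 CPM (median 7.14) after 3x4Gy and 99.4, 22.5, 48.98 and 82.2 CPM in mocks (log2FC -2.87, SE 0.46, adjusted p = 0.00029), Krt14 2.06 to 14.3 CPM after 3x4Gy and 28.6 to 54.4 CPM in mocks (log2FC -2.51, SE 0.46, adjusted p = 0.00097), and Grhl2 0.229 to 2.59 CPM after 3x4Gy and 4.8 to 10.5 CPM in mocks (log2FC -2.56, SE 0.50, adjusted p = 0.0016). With the covariate built from these 2 lists no epithelial gene was lower and 7 were higher, and collagen genes had 3 lower, but members of a covariate are partly set by it.

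Wnt genes had 4 of 16 tested lower and none higher (3 or 4 lower when 1 library was left out, and 1 higher without 3x0Gy library 4). Another 13 did not pass the filter on counts. Among these Wnt5a had 82 counts over the 3x4Gy libraries and 9 over the mocks, and the rest had at most 20 in either group. Wif1, a secreted Wnt inhibitor, had 0 to 1.25 CPM after 3x4Gy and 50.2, 12.26, 27.9 and 34.3 CPM in mocks (log2FC -5.72, SE 0.53, adjusted p = 6.5e-07), and Sfrp1, another, 0.295 to 3.01 CPM after 3x4Gy and 3.07 to 6.62 CPM in mocks (log2FC -1.72, SE 0.42). Ctnnb1, beta-catenin, was widely expressed and fell by 0.57 on the log2 scale (SE 0.13, adjusted p = 0.0067), with 243 to 361 CPM after 3x4Gy against 386 to 511 CPM in mocks. The imprinted genes Peg3 (0.436 to 3.01 CPM after 3x4Gy against 13.6 to 54.4 CPM in mocks; log2FC -4.72, SE 0.40) and H19 (0 to 1.53 CPM after 3x4Gy against 7.15 to 25.8 CPM in mocks; log2FC -4.10, SE 0.53) were the 2 of 7 called, both lower. The 4 tested haemoglobin genes Hba-a1, Hba-a2, Hbb-b1 and Hbb-b2 fell, for example Hba-a2 at 3.21 to 12.8 CPM after 3x4Gy against 19.5, 31.7, 20.04 and 44.5 CPM in mocks (log2FC -2.16, SE 0.32, adjusted p = 0.00015); near-identical copies may share reads. Csn2, the milk protein beta casein, fell to 0 to 0.316 CPM after 3x4Gy, against 3.07 to 11.9 CPM in mocks (log2FC -5.81, SE 0.68; -6.65 without 3x4Gy library 2), the 1 of 5 tested adipose and mammary genes called (2 without 3x4Gy library 1). Dcpp3, a salivary and mammary secretory gene with close copies, had no count after 3x4Gy (0 over 6 libraries) and 240 counts over the 4 mocks. Taking 3 counts over the whole 3x4Gy group as the limit of detection, it was at least 123-fold lower than the mock mean and at least 9.69-fold lower than the lowest mock.

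Several other genes among the largest or most clearly separated changes belong to none of the 63 lists. Rab11fip1, a recycling endosome adaptor, had 73.6 to 94.7 CPM (median 82.4) in 3x4Gy libraries and 28.9, 30.3, 27.6 and 27.9 CPM in mocks (log2FC 1.54, SE 0.13, adjusted p = 2.1e-07). Flrt3, an adhesion receptor, had 44.6 to 60.8 CPM after 3x4Gy and 10.8 to 21.9 CPM in mocks (log2FC 1.73, SE 0.21, adjusted p = 1.4e-05). Mxd1, a MYC antagonist, rose by 1.06 on the log2 scale (SE 0.13, adjusted p = 1.8e-05), Tspan13 by 0.96 on the log2 scale (SE 0.13, adjusted p = 4.2e-05) and Kmo, kynurenine monooxygenase, by 1.68 on the log2 scale (SE 0.25, adjusted p = 0.00012). These genes had no overlap, nor had Htr7, a serotonin receptor (log2FC 1.84, SE 0.28), B3gnt5, a glycolipid glycosyltransferase (log2FC 1.87, SE 0.40), the giant sarcomere gene Neb (log2FC 2.22, SE 0.50) or AB041803 (log2FC 1.89, SE 0.48). Upk3a, uroplakin 3a, rose by 3.21 on the log2 scale (SE 0.85, adjusted p = 0.015) with overlap, its 3x4Gy libraries spanning 0.229 to 21.3 CPM. Falling genes were Sertad4 (0.688 to 3.95 CPM after 3x4Gy against 24.5 to 41.1 CPM in mocks; log2FC -3.96, SE 0.33, adjusted p = 2.1e-07), Gja1, connexin 43 (log2FC -3.07, SE 0.34), the collagen chaperone Serpinh1 (log2FC -3.89, SE 0.51), Col16a1 (log2FC -3.71, SE 0.46), Pdzrn3 (log2FC -4.08, SE 0.45), Dact2 (log2FC -3.99, SE 0.52) and the nucleoside transporter Slc29a1 (log2FC -1.21, SE 0.15).

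**Figure D3:**
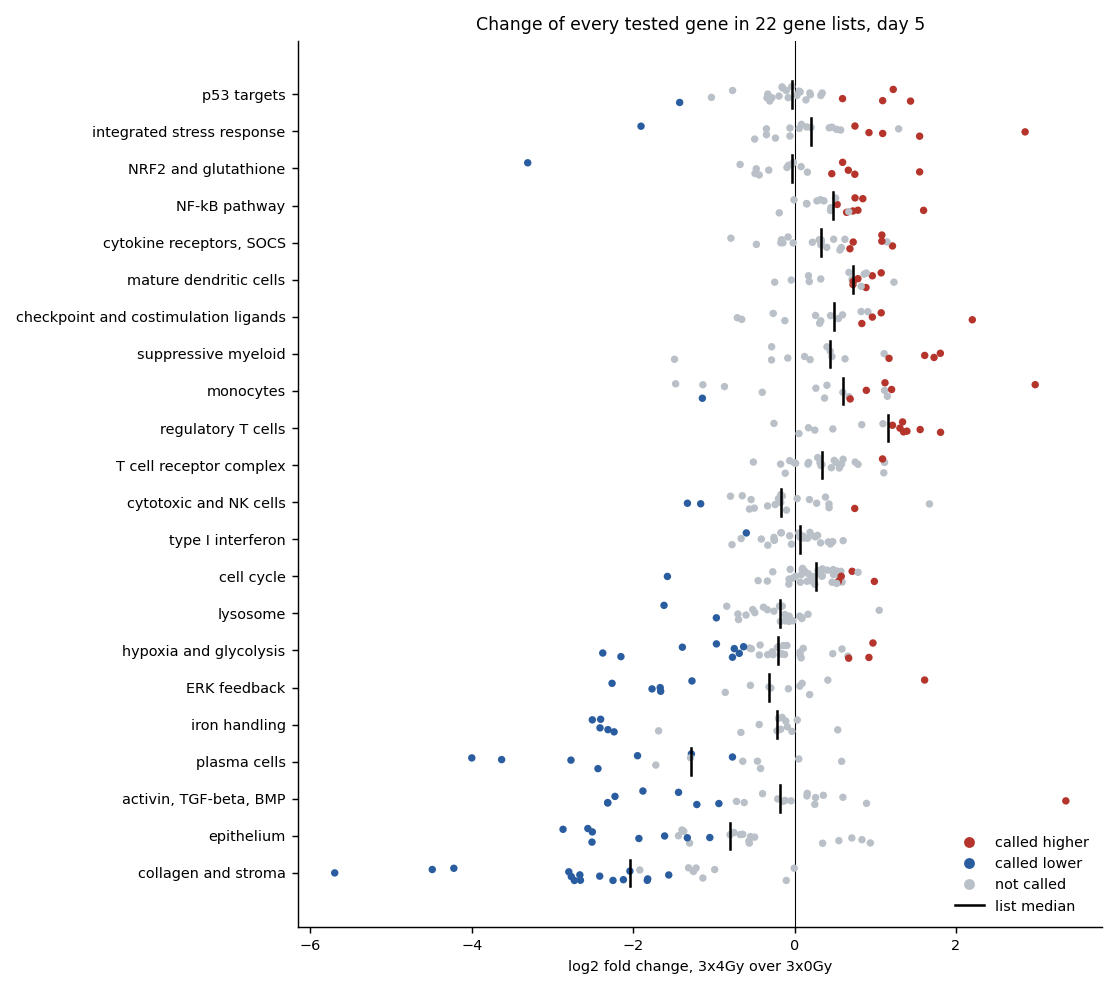
Log2 fold change of 3x4Gy over 3x0Gy for every tested member of 22 gene lists, red where called higher, blue where called lower and grey where not called, with a bar at the list median. Medians run from 1.15 for regulatory T cells to -2.04 for collagen and stroma, and most members of most lists are grey.

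Beside the single 20 Gy dose, set against its own mocks, the fractionated response differed in no gene by a test of the difference itself. Of 12021 genes 0 were called (0%) for that difference by edgeR, 714 at an unadjusted p below 0.05, 0 by limma voom and 1 by DESeq2, the clone-named gene Gm10801. Of the 625 genes higher after 3x4Gy 585 had the same sign after 1x20Gy and 202 were called there, and of the 852 lower ones 815 and 412; none was called the opposite way. Over all 12021 tested genes 8514 had the same sign in both contrasts, and 441 were called higher (3.67%) and 587 lower (4.88%) after 1x20Gy. The 2 contrasts have no library in common but share the fit's estimate of spread. For Chac1 the log2 fold changes were 2.86 after 3x4Gy and 3.84 after 1x20Gy, a difference of -0.99 (SE 0.66, adjusted p = 0.82). For Gbp2b they were 2.34 and 0.42 (difference 1.92 (SE 0.64, adjusted p = 0.74)), for Gbp5 1.26 and 0.09 (difference 1.17 (SE 0.39, adjusted p = 0.74)), for Bak1 0.90 and 0.02 (difference 0.88 (SE 0.23, adjusted p = 0.74)) and for Fcgr4 1.14 and 0.23 (difference 0.91 (SE 0.33, adjusted p = 0.8)). For Ighg2c they were -4.0 and 0.44 (difference -4.44 (SE 1.06, adjusted p = 0.74)). A p above the threshold does not show that the schedules acted alike.

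**Figure D4:**
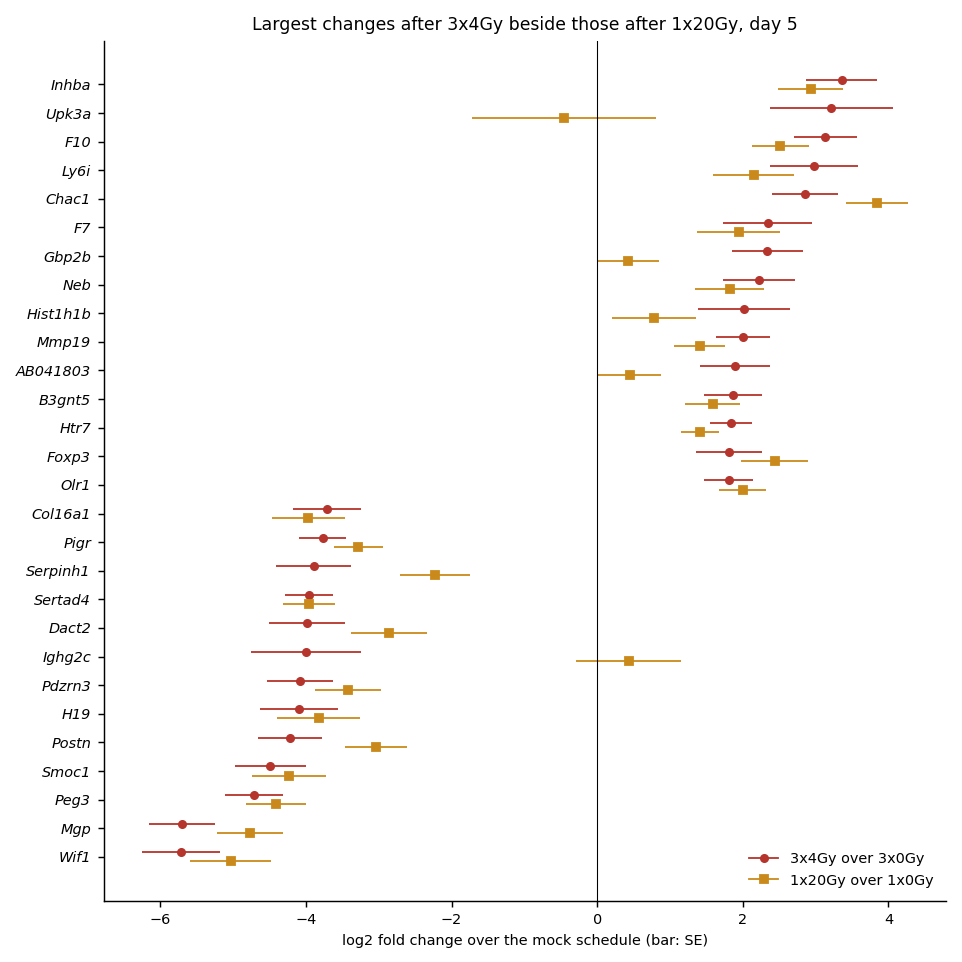
Log2 fold change over the matching mocks, with SE bars, after 3x4Gy (red circles) and 1x20Gy (ochre squares) for 28 of the genes with the largest changes after 3x4Gy, Dcpp3 left out. Genes were picked by the red values; Upk3a, at -0.46 after 1x20Gy, and Ighg2c, at 0.44, have the opposite sign there.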

How the data were processed

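Leukocyte RNA (RIN above 8.5 per the labels) from 20 day 5 libraries was analysed, 10 of them in the main comparison. The authors deposited raw read counts per gene symbol, 38406 symbols and 5 summary rows a library, with no normalisation. Per the submitters' processing notes they used bcl2fastq 2.20.0.422, cutadapt 1.5, HISAT2 2.0.4 and HTSeq 0.9.1 with builds GRCm38 and mm10; the annotation, strand setting and read filters are not given in the sources used here, so reads of overlapping antisense genes cannot be told apart. Summary rows were removed; the share outside genes is given in the report.

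Counts were scaled by TMM and tested with edgeR 4.0.16 (R 4.3.3), after filterByExpr (minimum count 10, minimum total 15), in 1 quasi-likelihood fit of 4 day 5 groups, with Benjamini-Hochberg adjustment over all 12021 genes and a threshold of 0.05. The standard error is the log2 fold change divided by the square root of F. CPM are TMM-scaled. Depth limits the precision of genes at a few CPM. limma 3.58.1 and DESeq2 1.42.0 were alternatives. Other alternatives were other scalings and filters, covariates and leaving out each library; the covariate and outside-share fits are compared in the closing section.

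The gene lists, named genes and comparisons were chosen with earlier results of these data known. Genes named by rank were the 15 called genes with the largest and the 15 with the smallest log2 fold change, among those with an ordinary symbol and a mean of at least 5 CPM; 1 of these is not reported here, and any list member could be named with its list's count. Rab11fip1, Flrt3, Mxd1, Tspan13, Kmo, Gja1 and Slc29a1 were chosen after their values were seen. Promoter windows came from RefSeq tables; no genome sequence was read.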

Additional observations from a re-analysis of the deposited data

Results flagged for a closer look

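In 8 of 142 groups of values checked, 1 library lay far from the others of its group; chance marks about 1 in 20 groups. Among 3x4Gy libraries, library 6 had 90.8 CPM of F10 where the others had 24.4 to 47.4 CPM. Library 1 of the same group was far from the rest for 4 genes: it had 88.2 CPM of Nfkb2 (others 52.3 to 64.6 CPM), 178 CPM of Il2ra (77.4 to 114 CPM), 91.5 CPM of Dusp6 (208 to 258 CPM) and 360.5 CPM of Mki67 (144 to 201 CPM). Among 3x0Gy libraries, library 2 had 13.3 CPM of Rel (81.9 to 95.2 CPM) and 19.8 CPM of Il7r (52.1 to 57.9 CPM), and library 1 had 282 CPM of Lcn2 (100.2 to 130.2 CPM). All 8 genes stayed called with any single library left out.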

How the results depend on the processing

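Of the 1477 calls for 3x4Gy against 3x0Gy, 698 were among the 702 genes called when the 10 libraries were fitted alone, which leaves fewer libraries to estimate the spread. With the share of reads outside genes as a covariate 667 genes were called (601 shared), with the collagen and epithelial covariate 99, and at an adjusted p below 0.01 665; the cause of the first drop was not tested. Leaving out 1 of the 20 libraries gave 1132 (without 3x0Gy library 1) to 1815 (without 3x4Gy library 2), and 1151 without 3x0Gy library 2. The count was 1560 under upper quartile scaling, 1463 under RLE scaling, 1409 by library size, 1389 without a filter, 1419 by limma voom and 1895 by DESeq2. A replicate block gave 1223 calls (1117 shared), but the libraries share only a number: deviations from the group means of same-numbered libraries correlated at 0.40, 0.08, -0.03 and 0.20. For the difference from the 1x20Gy response 1 gene was called without a filter and 1 by DESeq2, and 0 to 1 when 1 library was left out. Among the 149 named genes that were called, 120 lost the call with the collagen and epithelial covariate, 35 with the outside-share covariate, 23 at the stricter threshold, 22 in the fit of 10 libraries, 6 by library size, 4 by limma voom, 2 under the replicate block and 1 under upper quartile scaling; DESeq2, RLE scaling and no filter ended none. Il1b, not called at -0.14, was at 0.56 without 3x0Gy library 2, the top of a range from -0.33 over single omitted libraries. Counting error is widest for genes at a few CPM.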
